A study of Rattus norvegicus with 20 samples.

Results

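Superoxide dismutases, catalase, glutathione peroxidases and the thioredoxin system are the enzymes with which a muscle fibre removes superoxide and peroxides. The values below follow 10 such genes (Sod1, Sod2, Sod3, Cat, Gpx1, Gpx4, Prdx1, Txnrd1, Txnip and Gclc) in rat rear leg skeletal muscle, measured on 20 Affymetrix arrays from poly(A) RNA. All probe sets that the platform's gene table assigns to one of these genes and to no other were taken, which gave 19 of 8799 probe sets, and 10 of the 4737 genes that the array names alone on a probe set. Of these, 15 probe sets from 9 genes were bright enough to be tested, and 4 were not: 1 each for Sod3, Cat and Gpx1 and the only one for Gclc. The arrays fell into 4 groups of 5, namely muscle of normal rats, of diabetic rats, of normal rats given vanadyl sulfate and of diabetic rats given vanadyl sulfate, called untreated normal, untreated diabetic, treated normal and treated diabetic here. Vanadyl sulfate is a vanadium salt with insulin-like actions on blood glucose. How diabetes was produced, the rats' strain, sex and age, and the vanadyl sulfate dose and duration are details not given in the sources used here. Nothing states that the 5 replicates of a group were separate animals, so the p-values measure the spread between these samples, which may be partly technical.

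The 3 superoxide dismutases turn superoxide into hydrogen peroxide in different places: Sod1 (copper and zinc) in the cytosol, Sod2 (manganese) in the mitochondrial matrix, and Sod3 (copper and zinc) outside the cell. Hydrogen peroxide is then removed by catalase in peroxisomes, by the selenoenzyme Gpx1 at the expense of glutathione, and by peroxiredoxins such as Prdx1 at the expense of thioredoxin, while Gpx4 reduces lipid hydroperoxides in membranes. Txnrd1 returns oxidised thioredoxin to its reduced form, Txnip binds thioredoxin and inhibits it, and Gclc is the catalytic subunit of the rate-limiting enzyme of glutathione synthesis. Txnip is also known as a glucose-induced gene whose product lowers glucose uptake into muscle, and many of the other genes are known targets of the factor Nrf2, which binds antioxidant response elements.

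Since Nrf2 and the glucose-responsive factors bind short DNA motifs, the RefSeq promoter windows of the rat assembly GRCr8 (250 bases before to 50 bases after a gene's start) were searched on both strands for the antioxidant response element core TGACNNNGC and for the E-box CACGTG. The table held 11 windows for 8 of the 10 genes, and none for Txnip or Sod3. The antioxidant response core was found in 3 of the 11 windows, those of Sod2, Prdx1 and Txnrd1, against 12.1% of all 33469 windows. The E-box was found in 1 of the 11, that of Gpx1, against 6.42% of all windows. The matches are printed on the gene's strand with 20 bases on either side and the motif in capitals. In each of the 3 antioxidant response matches the core lies on the opposite strand, so that the capitals show its reverse complement. They describe the sequence at these starts and are not evidence that a factor binds there.
Sod2, chr1:50050175-50050223, minus strand: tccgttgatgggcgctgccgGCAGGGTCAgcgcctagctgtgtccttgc
Prdx1, chr5:135383751-135383799, plus strand: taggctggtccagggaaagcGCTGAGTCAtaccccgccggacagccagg
Txnrd1, chr7:22755954-22756002, minus strand: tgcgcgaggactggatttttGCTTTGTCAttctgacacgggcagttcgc
Gpx1, chr8:117905447-117905492, plus strand: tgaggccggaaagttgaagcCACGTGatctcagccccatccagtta

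All 20 arrays had been scaled to the same trimmed mean signal (2503.4 to 2506.5), and they correlated with each other at r = 0.683 to 0.968. The skeletal muscle markers, 10 of 12 of which are on the array, were above the 40th percentile of their array throughout. The Gapdh control, whose 3' to 5' signal ratio rises when RNA is broken or copied incompletely, had log2 ratios of 2.90 and 2.91 in untreated normal replicates 1 and 3 and 3.94 in treated diabetic replicate 1, against at most 1.30 in the other 17 arrays. The name high-ratio arrays refers to these 3 below. The beta-actin control set the arrays apart differently, with log2 ratios of 3.006, 1.681 and 2.606 in these 3. It had 2.303 and 2.516 in untreated diabetic replicates 1 and 3. In treated diabetic replicates 4 and 5 it had 2.396 and 2.085, and in treated normal replicate 1 2.093. Markers of leukocytes (9 of 14 listed genes tested) had a summed signal of 18482 to 87971 in the untreated diabetic arrays, highest in replicates 1 and 3, against 8054 to 16452 in the other 3 groups. Adipocyte markers (5 of 7 tested) summed to 32107 to 52595 in the untreated diabetic arrays, to 22985 to 34465 with treatment, and to at most 26381 in normal muscle of either kind. The 4 liver markers summed to 66976 in untreated diabetic replicate 5, 44680 in treated diabetic replicate 5, 13775 in treated diabetic replicate 4, 11753 and 8933 in untreated normal replicates 4 and 5, and at most 2662 elsewhere. Red blood cell markers (4 of 8 tested) summed to 27088 to 88381 in 19 arrays and to 5332 in treated normal replicate 5. In whole muscle, fewer cells of a type and less RNA per cell cannot be told apart.

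Across all 6 comparisons, none of the 15 tested probe sets passed an adjusted p of 0.05 (limma, Benjamini-Hochberg over all 6027 tested probe sets). Between untreated diabetic and untreated normal muscle, 7 probe sets had a positive and 8 a negative log2 difference, with a median of -0.02 beside -0.07 over all tested probe sets. In that comparison 0 of 15 were called while 1.83% of all tested probe sets were, and 2 of 15 had an unadjusted p under 0.05 while 16.7% of all did; both were higher, as were 9.14% of all. Between treated and untreated diabetic muscle, 4 were positive and 11 negative, with a median of -0.23 beside 0.08 over all. Here 0 of 15 were called against 0.498% of all, 5 of 15 had an unadjusted p under 0.05 against 16.3% of all (1 higher against 8.78% and 4 lower against 7.57%), and 2 of 15 had groups that did not overlap against 4.45% of all. Those 2 were both probe sets of the same gene, Txnip. Between treated and untreated normal muscle, 9 were positive and 6 negative, 0 were called against 0.0664% of all, 2 had an unadjusted p under 0.05 against 9.23% of all (both lower, against 1.89%), and 1 had groups without overlap against 1.84% of all.

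The remaining comparisons gave the same count of 0 calls. Treated diabetic against untreated normal muscle had 0 called among all 6027 probe sets and 3 of 15 members at an unadjusted p under 0.05 (12.8% of all). Treated diabetic against treated normal muscle also had 0 called in all, with 3 of 15 members under 0.05, each of them lower (17.9% of all in either direction and 12.3% lower). The interaction, which asks whether the treatment difference was the same in diabetic and normal muscle, had 0 members called against 0.166% of all, and 1 of 15 under 0.05 against 13.3% of all. The precision behind these counts was limited: the SE of a member's difference between groups ran from 0.22 to 0.82 on the log2 scale with a median of 0.44, beside 0.36 over all tested probe sets. For the interaction the SE was larger, from 0.304 to 1.154 with a median of 0.628, beside 0.505 over all. These comparisons share groups, so they are not independent of each other.

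**Figure D1:**
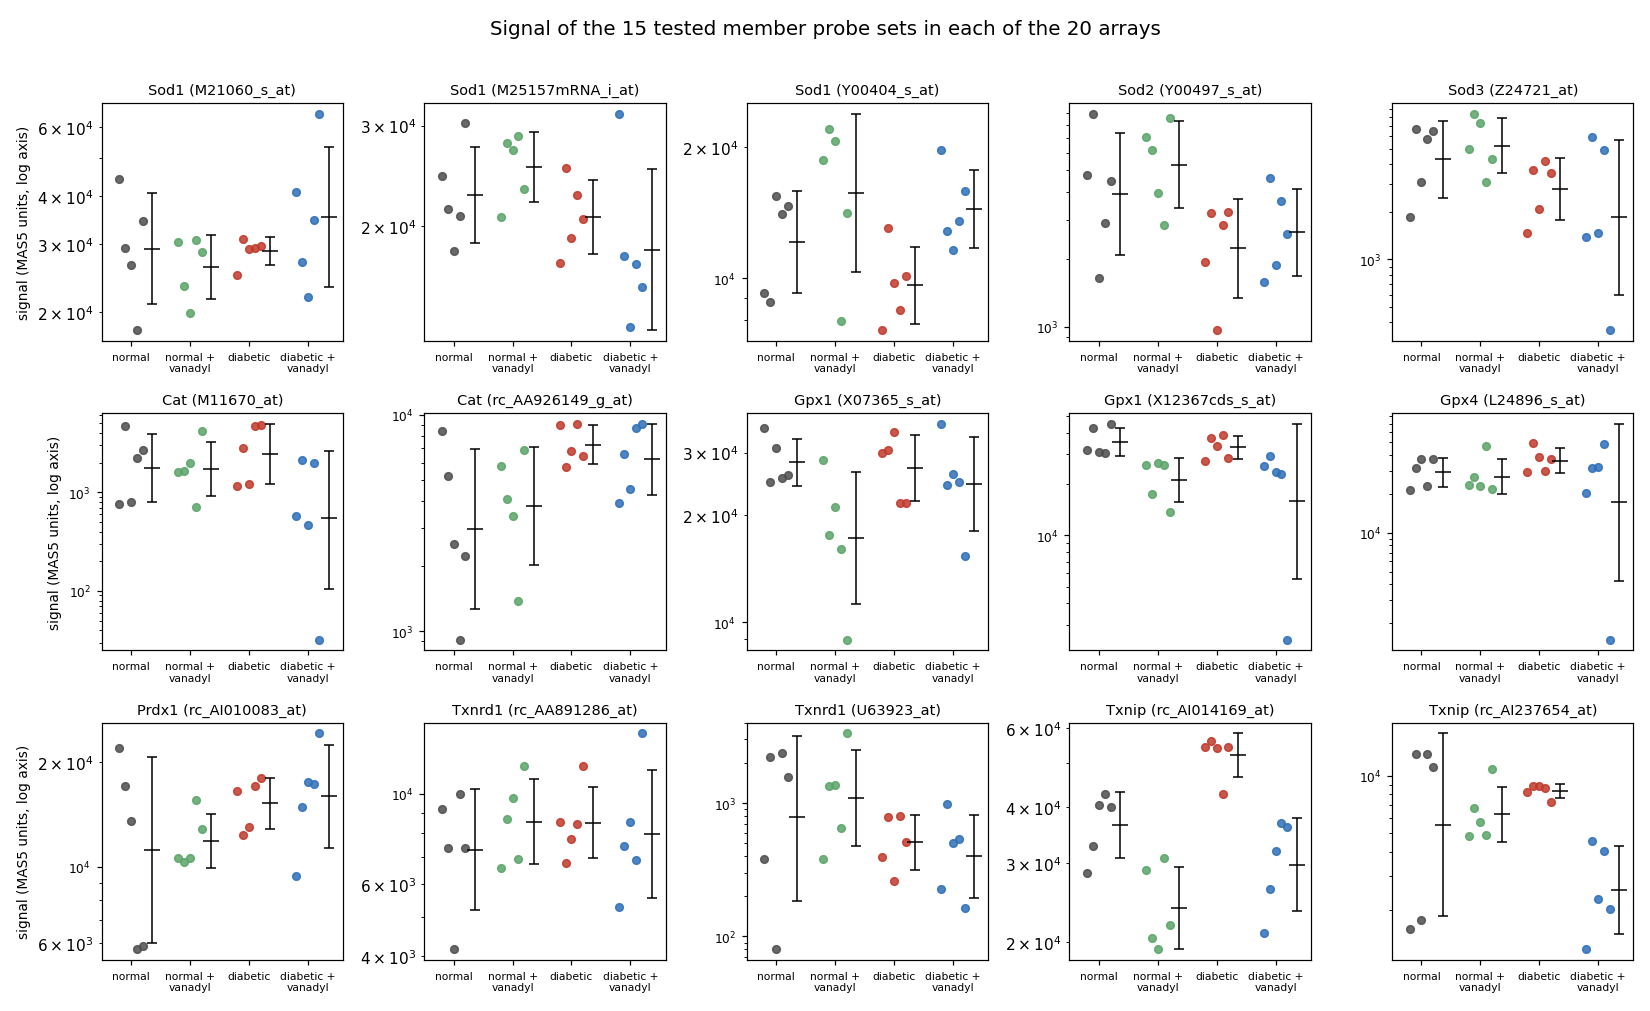
Signal of the 15 tested probe sets (MAS5 units, log axis) in each array, by group; points are single arrays in order of replicate number, and the bar beside them is the mean of the 5 log2 values with its SD. Txnip rc_AI014169_at lies between 42657 and 56213 in the untreated diabetic arrays and between 20984 and 36835 in the treated diabetic arrays, without overlap; in most other panels the groups overlap.

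**Figure D2:**
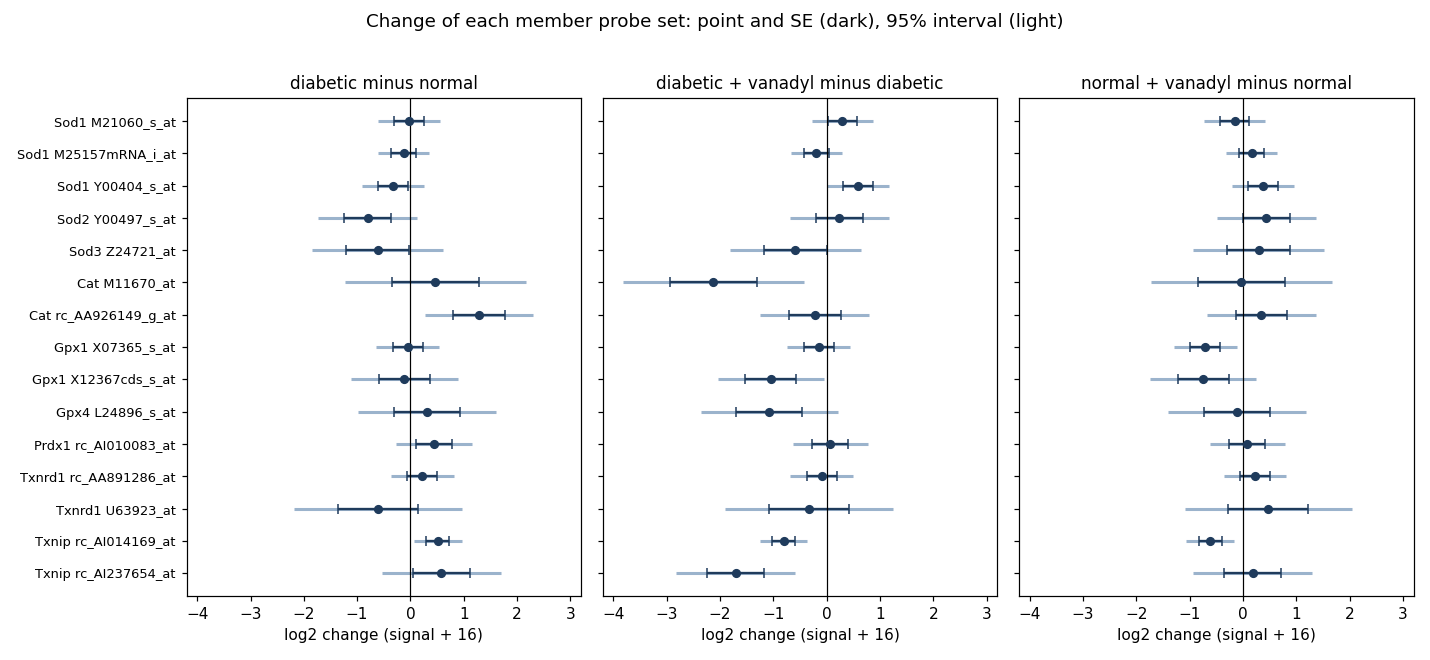
Log2 difference of each tested probe set in 3 comparisons (point), with its SE (dark bar) and 95% interval (light bar) from limma; the vertical line is no difference. The intervals of both Txnip probe sets lie below 0 for treated against untreated diabetic muscle, and no probe set passed an adjusted p of 0.05.

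Txnip, the inhibitor of thioredoxin, had the smallest unadjusted p of the 9 tested genes in treated against untreated diabetic muscle, in treated against untreated normal muscle and in the interaction. Cat led diabetic against normal muscle, Gpx1 treated diabetic against untreated normal, and Sod3 treated diabetic against treated normal muscle. On probe set rc_AI014169_at the signals of untreated normal muscle were 28560, 32694, 40322, 42722 and 40044 in replicates 1 to 5. Untreated diabetic muscle gave 54395, 56213, 54161, 42657 and 54359, so that 4 of its 5 arrays were above every untreated normal array and replicate 4 was just below the highest of them. Treated diabetic muscle gave 20984, 26242, 31830, 36835 and 36087, all below the lowest untreated diabetic array. In treated normal muscle the signals were 28903, 20360, 19332, 30796 and 21794, of which 3 were below every untreated normal array. The mean log2 signals were thus ordered untreated diabetic (15.67 ± 0.16, SD, n = 5), untreated normal (15.15 ± 0.25), treated diabetic (14.86 ± 0.34) and treated normal (14.54 ± 0.31), and no neighbouring pair in that order differed by an adjusted p under 0.05.

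Treated diabetic muscle had 1.75-fold lower Txnip signal than untreated diabetic muscle on this probe set, a log2 difference of -0.81 ± 0.22 (SE; 95% interval -1.26 to -0.36; limma adjusted p = 0.102), with all 5 treated arrays below the untreated mean. Untreated diabetic muscle was 1.43-fold above untreated normal muscle (log2 difference 0.52 ± 0.22, adjusted p = 0.222), and treated normal muscle was 1.53-fold below it (adjusted p = 0.406). The treatment difference in diabetic muscle minus that in normal muscle was -0.19 ± 0.30 (95% interval -0.83 to 0.44, adjusted p = 0.836). Over 20 alternative settings the difference between treated and untreated diabetic muscle ranged from -0.89 to -0.68, with adjusted p from 0.0601 to 0.511. Leukocyte and adipocyte marker sums also differed between these groups, as given above, and without untreated diabetic replicates 1 and 3 the difference was -0.77 (adjusted p = 0.511). The signal of this probe set correlated with the Gapdh 3' to 5' ratio at r = -0.09 over the 20 arrays.

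The other Txnip probe set, rc_AI237654_at, gave 1578, 13008, 1754, 13050 and 11115 in untreated normal muscle, where replicates 1 and 3 lay far below the other 3. Untreated diabetic signals were 8180, 8821, 8804, 8640 and 7271, a narrow range. Treated diabetic signals were 1241, 4563, 2266, 4039 and 2013, again all below the lowest untreated diabetic array. In treated normal muscle the probe set gave 4833, 6809, 5716, 4881 and 10815, all above the highest treated diabetic array (3.22% of all tested probe sets did not overlap in that comparison). Treated diabetic muscle was 3.27-fold below untreated diabetic muscle (log2 difference -1.71 ± 0.54, adjusted p = 0.140), 2.48-fold below treated normal muscle (adjusted p = 0.219) and 2.18-fold below untreated normal muscle (adjusted p = 0.391). The interaction was -1.89 ± 0.76 on the log2 scale (adjusted p = 0.292).

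This second probe set moved with the Gapdh 3' to 5' ratio, at r = -0.82 over the 20 arrays, and its 3 lowest signals were those of the 3 arrays with the highest ratio. Without these 3 arrays, its difference between treated and untreated diabetic muscle was -1.45 ± 0.28 (adjusted p = 0.0291, with 0.531% of all tested probe sets called) and that between treated diabetic and untreated normal muscle -2.02 ± 0.32 (adjusted p = 0.00854, with 5.96% called). The same setting turned the difference between untreated diabetic and untreated normal muscle from 0.58 (adjusted p = 0.606) to -0.57 (adjusted p = 0.265), and that between treated and untreated normal muscle from 0.18 to -0.97 (adjusted p = 0.215). It also brought the interaction to -0.48 (adjusted p = 0.717). Without the 3 arrays the first probe set kept its sign between untreated diabetic and untreated normal muscle and in both treatment differences. Its treated minus untreated difference was then -0.68 (adjusted p = 0.157) in diabetic and -0.68 (adjusted p = 0.238) in normal muscle. What part RNA quality has in the pattern of the second probe set was not tested beyond this.

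**Figure D3:**
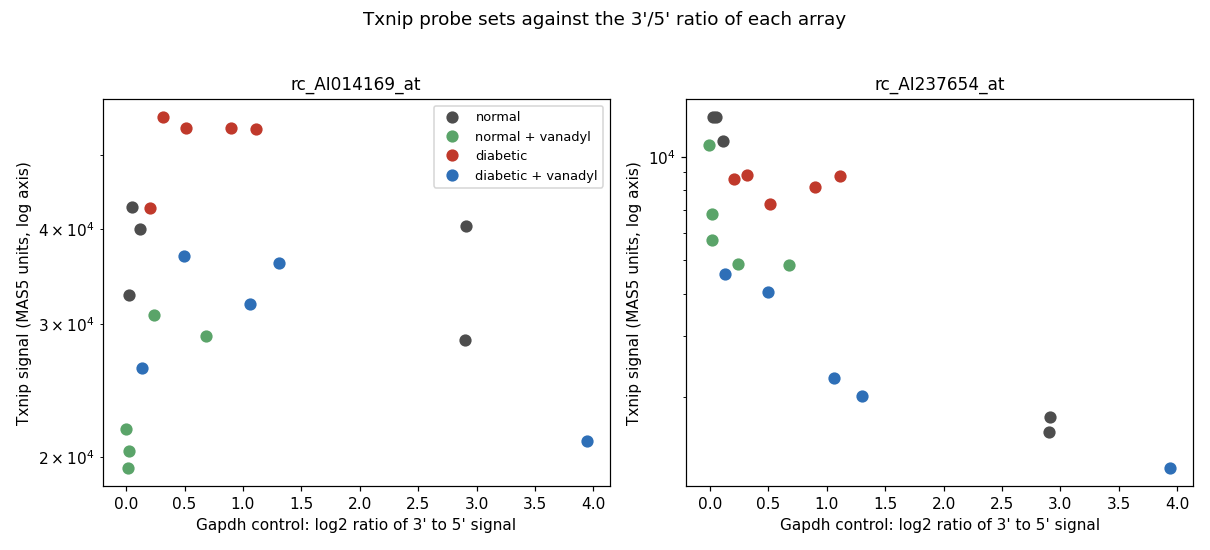
Signal of the 2 Txnip probe sets (MAS5 units, log axis) against the Gapdh control's 3' to 5' ratio (log2) in each of the 20 arrays, coloured by group. On the right-hand panel (rc_AI237654_at) the 3 arrays with ratios from 2.90 to 3.94 have the 3 lowest signals (r = -0.82), while the left-hand panel (rc_AI014169_at) shows no such relation (r = -0.09).

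Txnrd1, the reductase that recharges thioredoxin, showed no difference past the threshold on either probe set. On rc_AA891286_at the signals overlapped in all groups, with a range of 4156 to 10023 (untreated normal), 6782 to 11693 (untreated diabetic), 5271 to 14080 (treated diabetic) or 6568 to 11737 (treated normal). The largest of its differences between 2 groups was 0.23 ± 0.28 on the log2 scale, between treated and untreated normal muscle (95% interval -0.36 to 0.82, adjusted p = 0.824). On the dimmer set U63923_at untreated normal muscle gave 381, 2205, 80.1, 2374 and 1577, and untreated diabetic muscle 396, 792, 262, 794 and 509. That probe set also correlated with the Gapdh ratio (r = -0.75), and its 2 low normal arrays were replicates 1 and 3. Its difference between untreated diabetic and untreated normal muscle was -0.61 ± 0.75 (adjusted p = 0.722) with all arrays and -1.96 ± 0.60 (adjusted p = 0.0542) without the 3 high-ratio arrays.

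Prdx1, a cytosolic peroxidase that draws on thioredoxin, gave 22043, 17138, 13537, 5774 and 5919 in untreated normal muscle and 16562, 12352, 13050, 17098 and 17999 in untreated diabetic muscle. The normal arrays spanned the diabetic ones on both sides, and the difference was 0.45 ± 0.34 (adjusted p = 0.523), or 0.21 to 0.69 with 1 array left out. Treated diabetic signals were 9412, 14902, 17561, 17352 and 24261, which overlapped the untreated diabetic arrays and differed from them by a log2 value of 0.07 ± 0.34 (95% interval -0.64 to 0.78, adjusted p = 0.941). Treated normal muscle ranged from 10349 to 15621 and overlapped each of the other groups. Prdx1 signals correlated at r = 0.168 with the Gapdh ratio and 0.482 with the beta-actin ratio.

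Among the superoxide dismutases, the mitochondrial Sod2 gave 4776, 8918, 1645, 2895 and 4503 in untreated normal muscle and 1939, 3234, 966, 2858 and 3246 in untreated diabetic muscle. All 5 diabetic arrays were below the normal mean, though the groups overlapped, and diabetic muscle was 1.74-fold lower (log2 difference -0.80 ± 0.44, adjusted p = 0.371). Leaving out 1 array gave -1.11 to -0.50, with the smallest differences without untreated normal replicate 2 or untreated diabetic replicate 3. Without untreated diabetic replicates 1 and 3, the arrays with the highest leukocyte markers, the difference was -0.33 (adjusted p = 0.932). Sod2 signals correlated with the Gapdh ratio at r = -0.49, and without the 3 high-ratio arrays the difference was -1.12 (adjusted p = 0.154). In treated diabetic muscle Sod2 signals were 1577, 4615, 1884, 3656 and 2587, which overlapped the untreated diabetic arrays throughout (log2 difference 0.24 ± 0.44, adjusted p = 0.810). Treated normal muscle gave 7067, 6138, 3969, 2844 and 8598, on average 2.00-fold above treated diabetic muscle (95% interval of treated diabetic minus treated normal -1.93 to -0.07 on the log2 scale, adjusted p = 0.248).

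Sod3, the extracellular enzyme, was measured on Z24721_at at 1842, 6662, 3105, 5805 and 6527 in untreated normal, and at 1471, 3702, 2078, 4223 and 3535 in untreated diabetic muscle. Again all 5 diabetic arrays were below the normal mean and the groups overlapped (1.53-fold lower, log2 difference -0.62, adjusted p = 0.621). Leaving out 1 array gave -0.92 (without normal replicate 1) to -0.39 (without diabetic replicate 1). Without untreated diabetic replicates 1 and 3 the difference was -0.17 (adjusted p = 0.990), and without the 3 high-ratio arrays -1.18 (adjusted p = 0.291). Treated diabetic arrays gave 1381, 5952, 1477, 4895 and 358, the widest spread of any group for this gene. Treated normal arrays gave 4994, 8290, 7274, 3097 and 4287. Treated diabetic muscle was 2.82-fold below treated normal muscle (log2 difference -1.50 ± 0.59, adjusted p = 0.204), and without treated diabetic replicate 5 the difference was -0.91. Sod3 signals correlated with the Gapdh ratio at r = -0.57.

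The cytosolic Sod1 had 3 tested probe sets, and they did not move together. On Y00404_s_at untreated diabetic muscle gave 7599, 13002, 9731, 8465 and 10109 and treated diabetic muscle 19636, 12835, 11571, 13511 and 15803. All 5 treated arrays were above the untreated mean, with overlap through untreated replicate 2, and the log2 difference was 0.58 ± 0.28 (1.50-fold, adjusted p = 0.301). Untreated normal signals on this set ranged from 8831 to 15471 and treated normal ones from 7956 to 21998. The same treated against untreated diabetic comparison gave 0.29 ± 0.28 on M21060_s_at (adjusted p = 0.613) and -0.19 ± 0.23 on M25157mRNA_i_at (adjusted p = 0.702). On those 2 sets the signals of all arrays ran from 17984 to 64931 and from 13327 to 31402. Between untreated diabetic and untreated normal muscle the 3 probe sets differed by -0.33, -0.13 and -0.02, with adjusted p from 0.564 to 0.980.

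Catalase, the peroxisomal enzyme, was tested on a pair of probe sets that disagreed. On rc_AA926149_g_at untreated normal muscle gave 8454, 5226, 2546, 916 and 2222, a 5-array group with a wide spread. Untreated diabetic muscle gave 8968, 5735, 6841, 9065 and 6434, all above the normal mean, with normal replicate 1 inside their range. The diabetic signal was 2.45-fold higher, a log2 difference of 1.29 ± 0.49 (95% interval 0.27 to 2.31, adjusted p = 0.175). Treated diabetic muscle gave 3912, 6596, 4571, 8739 and 9099, which overlapped the untreated diabetic arrays (log2 difference -0.23 ± 0.49, 95% interval -1.24 to 0.79, adjusted p = 0.840). It was 2.09-fold above untreated normal muscle (adjusted p = 0.372). Treated normal muscle gave 5834, 4078, 3410, 1380 and 6906. Single normal arrays moved the Cat difference between untreated diabetic and untreated normal muscle both ways. Without normal replicate 1 it was 1.67 (adjusted p = 0.0476, with 4.10% of all tested probe sets called), and without normal replicate 4, the array at 916, it was 0.87 (adjusted p = 0.390). Without the 3 high-ratio arrays it was 1.72 (adjusted p = 0.049, with 7.70% called), and with the 3' to 5' ratios as covariates 0.91. Over 20 alternative settings its adjusted p ran from 0.0476 to 0.668. The signal of this probe set correlated at r = 0.089 with the Gapdh ratio and 0.458 with the beta-actin ratio. The difference between treated diabetic and untreated normal muscle was 1.07 with all arrays and 0.65 (adjusted p = 0.614) without normal replicate 4.

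On the other catalase probe set, M11670_at, untreated normal muscle gave 761, 4691, 800, 2241 and 2675 and untreated diabetic muscle 1156, 2813, 1207, 4698 and 4802. These groups overlapped almost completely (log2 difference 0.47 ± 0.82, adjusted p = 0.812), and without the 3 high-ratio arrays the sign turned to -0.31 (adjusted p = 0.869). Treated diabetic muscle gave 569, 2122, 461, 1992 and 32.1, all below the untreated diabetic mean. The log2 difference was -2.13 ± 0.82 (adjusted p = 0.222) with all arrays, and -1.24 (adjusted p = 0.415) without treated diabetic replicate 5, the array at 32.1. Treated normal signals of 1611, 1652, 1977, 707 and 4197 overlapped each of the other groups.

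Gpx1, the main cytosolic glutathione peroxidase, was lower in the treated arrays of both kinds on X12367cds_s_at, without passing the test. Untreated normal muscle gave 31463, 42360, 30563, 30514 and 44691, and treated normal muscle 25727, 17448, 26383, 25792 and 13754, with no overlap (1.68-fold lower, log2 difference -0.75 ± 0.48, adjusted p = 0.620). Untreated diabetic muscle gave 27364, 37333, 33342, 38903 and 28440, and treated diabetic muscle 25533, 29314, 23553, 22870 and 2447. Here the groups overlapped through treated replicate 2, and the log2 difference was -1.05 ± 0.48 (adjusted p = 0.281) with all arrays but -0.38 (adjusted p = 0.505) without treated diabetic replicate 5. Treated diabetic muscle also did not overlap untreated normal muscle (2.24-fold lower, log2 difference -1.16, adjusted p = 0.342, with 0.68% of all tested probe sets without overlap in that comparison). Without treated diabetic replicate 5 that difference was -0.49 (adjusted p = 0.664). The treatment differences in diabetic and normal muscle differed by -0.31 ± 0.68 (95% interval -1.72 to 1.11).

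The second Gpx1 probe set, X07365_s_at, gave 35138, 24763, 30889, 25374 and 25917 in untreated normal muscle and 28519, 17595, 21158, 16080 and 8939 in treated normal muscle. Here 4 of 5 treated arrays were below the lowest untreated one, and the treated group was 1.63-fold lower (log2 difference -0.71 ± 0.28, adjusted p = 0.493). Without treated normal replicate 5, the array at 8939, the difference was -0.47 (adjusted p = 0.752). That array also had the lowest red blood cell marker sum, 5332 beside 27088 to 60195 in the other 4 treated normal and 28196 to 88381 in the untreated normal arrays, and the probe set's signal correlated with the Gapdh ratio at r = 0.52. Their part in the difference was not tested. In diabetic muscle this set ranged from 21622 to 34239 untreated and from 15361 to 36138 treated, a log2 difference of -0.15 ± 0.28 (95% interval -0.74 to 0.44, adjusted p = 0.814). Untreated diabetic minus untreated normal muscle was -0.05 ± 0.28 on X07365_s_at (95% interval -0.64 to 0.54). On X12367cds_s_at it was -0.11 ± 0.48 (95% interval -1.11 to 0.89).

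Gpx4, which protects membranes from lipid peroxidation, gave 21536, 31573, 37419, 22834 and 37012 in untreated normal and 29298, 49880, 38299, 29871 and 37271 in untreated diabetic muscle. All 5 diabetic arrays were above the normal mean of log2 values, within an overlapping range (log2 difference 0.31 ± 0.62, adjusted p = 0.847). Treated diabetic muscle gave 20460, 31658, 32151, 48374 and 1484, so that replicate 5 lay far below the other 4. That array set the size of the treated against untreated difference, which was -1.07 ± 0.62 (adjusted p = 0.390) with it and -0.19 (adjusted p = 0.806) without it. Treated normal muscle gave 23452, 27017, 23096, 46806 and 21709, with replicate 4 apart from the other 4 arrays.

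Treated diabetic replicate 5 was the lowest of all 20 arrays for Sod3, Cat M11670_at, Gpx1 X12367cds_s_at and Gpx4, and the highest for Prdx1, Cat rc_AA926149_g_at, Sod1 M21060_s_at (64931) and Txnrd1 rc_AA891286_at. Its liver marker sum was the second highest of the arrays and its Gapdh ratio was 1.30, and their part in these values was not tested. Untreated diabetic replicate 5, with a higher liver marker sum, was the highest of its own group for Prdx1 (17999) and Txnrd1 rc_AA891286_at (11693). For Cat M11670_at (4802) it was the highest of all 20 arrays. For the other probe sets just named, Gpx4 (37271) among them, it lay inside the range of its own group. Whether liver transcripts have a part in either array's values was not tested. Without treated diabetic replicate 5 the Txnip differences between treated and untreated diabetic muscle were -0.88 (adjusted p = 0.0947) on rc_AI014169_at and -1.63 (adjusted p = 0.242) on rc_AI237654_at.

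The probe sets that were not tested were dim in every group. The only Gclc probe set, J05181_at, had signals of 19.5 to 209 and exceeded the 40th percentile of its array in 0 of 20 arrays, so that no statement on this enzyme was possible. Gpx1 M21210_i_at (24.3 to 131) was likewise below that level in all arrays. Cat rc_AA926149_at exceeded it in 3 arrays and Sod3 X68041cds_s_at in 1, untreated normal replicate 2 at 1199. Of the 15 tested sets, 13 were above that level in all 20 arrays; the exceptions were Cat M11670_at in 19 and Txnrd1 U63923_at in 16.

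Probe sets of the same gene agreed poorly from array to array. Over the 20 arrays their log2 signals correlated at r = 0.54 for Gpx1, 0.37 for Txnrd1, 0.32 for Txnip, -0.04 for catalase and -0.04 to 0.24 for the 3 pairs of Sod1. Both Txnip sets placed all treated diabetic arrays below all untreated diabetic ones, but they parted elsewhere. Untreated normal replicates 1 and 3 were far below the rest of their group on rc_AI237654_at only. Untreated normal replicates 2, 4 and 5 (13008, 13050 and 11115) were above every untreated diabetic array on that set. On rc_AI014169_at all untreated diabetic arrays except replicate 4 were above every untreated normal one. Treated normal muscle had the lowest mean log2 signal of all groups on rc_AI014169_at (14.54). On rc_AI237654_at its mean was above that of treated diabetic muscle (12.63 against 11.32). For catalase, the set that was higher in untreated diabetic muscle was also high in treated diabetic muscle, and the other set was not. A statement on the Sod1, Cat, Gpx1, Txnrd1 or Txnip gene as a whole would therefore depend on the probe set chosen. For Txnip, treated minus untreated normal muscle was -0.615 on rc_AI014169_at and 0.183 on rc_AI237654_at. The interaction was -0.193 and -1.891 on these sets. For Gpx1, treated minus untreated diabetic muscle was -0.148 on X07365_s_at and -1.049 on X12367cds_s_at.

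**Figure D4:**
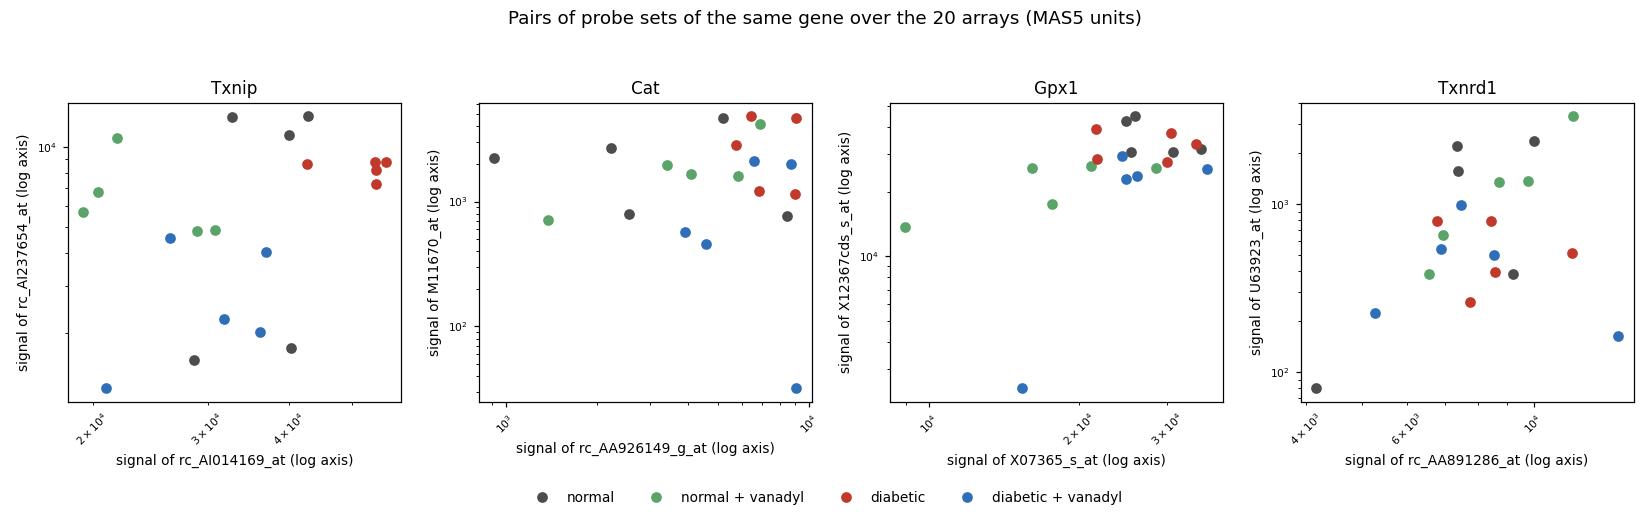
Signals of 2 probe sets of the same gene plotted against each other for Txnip, Cat, Gpx1 and Txnrd1 (MAS5 units, log axes); each point is 1 of 20 arrays, coloured by group. The pairs correlate at r = 0.32, -0.04, 0.54 and 0.37, and in the Txnip panel the treated diabetic arrays lie below and to the left of the untreated diabetic ones.

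For the 3 members with the smallest p-values, the genes with the most similar pattern were sought among 3581 others by Pearson correlation of log2 signals over the 20 arrays, which share their groups and RNA quality. Txnip rc_AI014169_at was most like Esm1 (r = 0.78), an endothelial proteoglycan, and Ech1 (r = 0.78) and Decr1 (r = 0.76), both enzymes that handle unsaturated fatty acids in beta-oxidation. Cat rc_AA926149_g_at was most like Zfp36l1 (r = 0.87), Canx (r = 0.86) and Arhgap28 (r = 0.85). Sod3 Z24721_at was most like Vegfb (r = 0.94), Hspa1a (r = 0.91) and Rab12 (r = 0.90).

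The neighbouring redox genes were taken from a list of which 42 are on the array and 38 were tested, with 1 probe set for each gene. Between untreated diabetic and untreated normal muscle 1 of the 38 rose past the threshold, none fell and 37 did not pass it, beside 1.83% of all tested probe sets. The median log2 difference was 0.35, against -0.04 over all genes. The 1 gene was Xdh, xanthine oxidoreductase, which can produce superoxide (log2 difference 1.24 ± 0.31, adjusted p = 0.0475). The call was lost in 6 of 11 other settings, among them the fit without untreated diabetic replicates 1 and 3 (adjusted p = 0.393). It was also lost in 9 of the 10 fits that left out 1 array (adjusted p up to 0.140) and kept only without untreated normal replicate 1 (adjusted p = 0.00619). Gpx3, the plasma glutathione peroxidase, followed at 1.41 ± 0.37 (adjusted p = 0.0537) and Prdx3, the mitochondrial peroxiredoxin, at -0.83 ± 0.24 (adjusted p = 0.0786), each with groups that did not overlap (5.09% of all tested probe sets). The 5 thioredoxin and peroxiredoxin genes of the list, Prdx3 included, had negative differences (-0.83 to -0.18). The list's glutathione class has 11 genes, Gpx3 among them, and includes Tkt, Taldo1, Idh1, Idh2 and Nnt, which do not act on glutathione themselves. Of the 11, 10 had positive differences (-0.33 to 1.41 over the 11). None of either class was past the threshold. Of all 3582 tested genes 46.8% were positive and 53.2% negative in that comparison. Members of the same classes, described above and not in the list, did not all share these signs: Prdx1 was at 0.45 and Txnrd1 at 0.22 and -0.61, while Gpx1 was at -0.05 and -0.11 and Gpx4 at 0.31.

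Vanadyl sulfate gave no call among the 38 genes. In diabetic muscle the smallest p-values belonged to Cyba, a subunit of the phagocyte NADPH oxidase (-2.05 ± 0.55, adjusted p = 0.103), the carbonyl reductase Cbr1 (-1.08 ± 0.35, adjusted p = 0.164) and Gpx3 (-1.07 ± 0.37, adjusted p = 0.184), and the list's median was -0.15 against 0.10 over all genes. The leukocyte marker sums of these groups, given above, did not overlap either, and their part in the Cyba value was not tested. In normal muscle the aldo-keto reductase Akr7a3 (1.11, adjusted p = 0.335), the transcription factor Foxo1 (0.73, adjusted p = 0.442) and Xdh (0.79, adjusted p = 0.493) had the smallest p-values. Treated diabetic against untreated normal muscle was led by Prdx3 (-0.76, adjusted p = 0.270), Akr7a3 (0.88, adjusted p = 0.336) and the cytosolic peroxiredoxin Prdx2 (-0.46, adjusted p = 0.399). Treated diabetic against treated normal muscle was led by the transaldolase Taldo1 (0.87, adjusted p = 0.178), the inducible nitric oxide synthase Nos2 (1.31, adjusted p = 0.178) and the mitochondrial isocitrate dehydrogenase Idh2 (0.70, adjusted p = 0.180). The interaction had its smallest p-values for Xdh (-1.60, adjusted p = 0.131), Gpx3 (-1.81, adjusted p = 0.152) and Nos2 (2.14, adjusted p = 0.164).

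**Figure D5:**
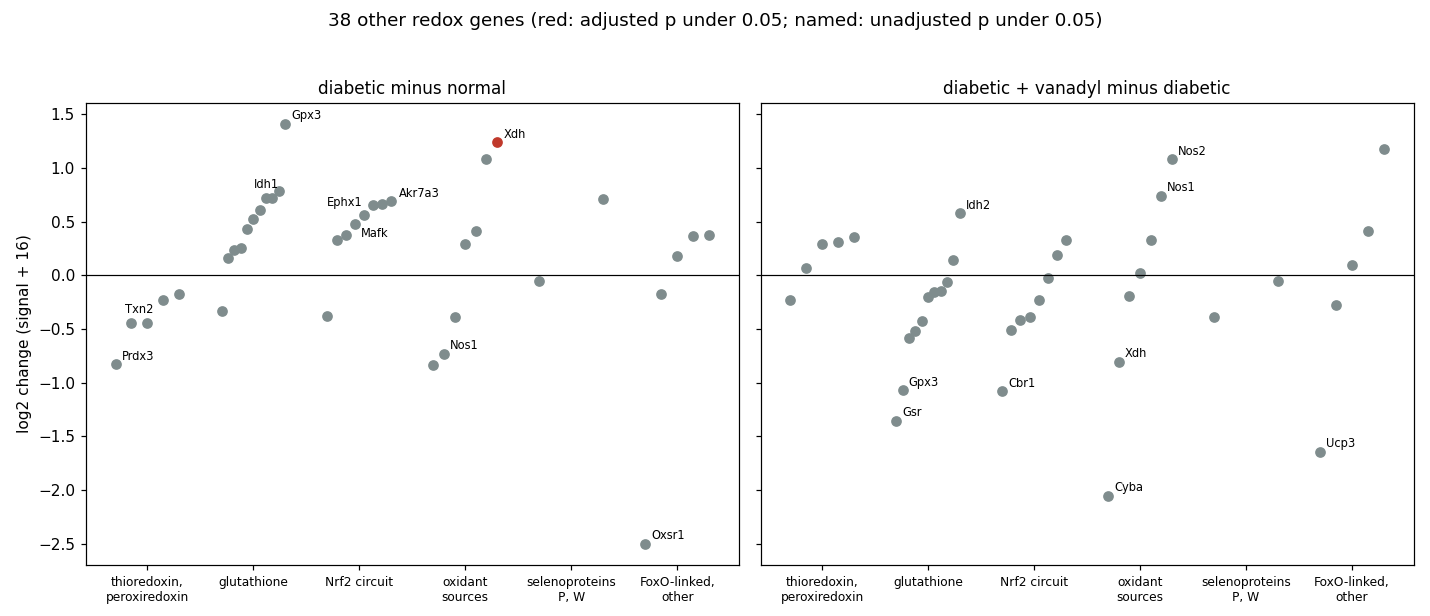
Log2 difference of the 38 other redox genes, 1 point each, by class, for untreated diabetic minus untreated normal muscle (left) and treated minus untreated diabetic muscle (right); genes with an unadjusted p under 0.05 are named and the gene with an adjusted p under 0.05 is red. Xdh at 1.24 is the 1 red point, and the 5 thioredoxin and peroxiredoxin genes of the list lie between -0.83 and -0.18 on the left.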

How the data were processed

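The deposited values are linear-scale Affymetrix signal intensities for 8799 probe sets. The submitters' processing notes name MAS5 as the authors' software, and no version or setting is given in the sources used here. Gene symbols came from the platform's probe table, updated through gene identifiers in the RefSeq table (7018 probe sets had 1 symbol, 308 several and 1473 none listed). Probe sets were tested if they exceeded the 40th percentile of the same array in at least 5 of 20 arrays and were no controls, which left 6027. Those of them with 1 symbol came from 3582 genes. Log2(signal + 16) was fitted with limma 3.58.1 in R 4.3.3, with 4 group means over all 20 arrays, two-sided, and p-values were adjusted over all tested probe sets by Benjamini-Hochberg at 0.05. Differences on this scale understate the change of dim probe sets, and the number of arrays limits the precision. A fold is the power of 2 of the log2 difference.

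Marker sums add, within an array, the signals of the tested genes of a list, with the brightest tested probe set taken for each gene. All probe sets of the 10 genes are named. Of the pathway list, represented by each gene's brightest probe set, the genes past the threshold and the 3 smallest p-values per comparison are named. The 3 most correlated genes are named for the 3 members with the smallest p-values. The members and lists were chosen with earlier results of these data known. Alternatives were other pseudocounts, filters and normalization, fewer arrays, control ratios as covariates and a replicate block. The fit was tested on simulated data.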

Additional observations from a re-analysis of the deposited data

Results flagged for a closer look

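For the 15 tested probe sets, each group of 5 arrays was searched for 1 array far from the others (Dixon's criterion at 95%). Of 60 groups, 5 held such an array, where chance gives about 1 in 20. Treated diabetic replicate 5 stood apart on Gpx1 X12367cds_s_at, with a signal of 2447, and on Gpx4 L24896_s_at, with 1484. Treated normal replicate 4 stood above its group on Gpx4, with 46806. Untreated diabetic replicate 4 was below its group on Txnip rc_AI014169_at, with 42657. Untreated diabetic replicate 1 was below its group on Sod1 M21060_s_at, with 24991.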

How the results depend on the processing

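No member was called in any comparison under a smaller or a larger pseudocount, no filter, the filter at the 60th percentile, quantile normalization, the fit on the compared groups alone, the 3' to 5' ratios as covariates or the fit without untreated diabetic replicates 1 and 3. Without the 3 high-ratio arrays, 1 member was called in each of 3 comparisons: diabetic against normal (Cat rc_AA926149_g_at), treated against untreated diabetic and treated diabetic against untreated normal (Txnip rc_AI237654_at in both). Leaving out 1 array at a time gave 0 to 1 calls for diabetic against normal and 0 in the other comparisons. With the replicate number as a block, 0 members were called in all 6 comparisons. Same-numbered arrays of different groups correlated at -0.28 to 0.62 (median 0.07) in their deviations from the group means. Other pairs between groups correlated at -0.495 to 0.407 (median 0.004). Values over 0.1 were found in 11 of 30 same-numbered and 33 of 120 other pairs. With their own number 6 of 20 arrays correlated best. The main fit did not take the numbers to pair the samples, and these values do not settle whether they do.

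Differences that turned sign are given on the log2 scale. Every tested member was searched in diabetic against normal, treated against untreated diabetic and treated against untreated normal muscle. In the other comparisons only members with an unadjusted p under 0.05 in the main fit were searched, so sign turns of the rest are not listed. With the ratios as covariates, diabetic against normal gave 0.07 for Sod1 M25157mRNA_i_at; treated against untreated diabetic gave 0.056 and 0.26 for Txnrd1 rc_AA891286_at and U63923_at; treated against untreated normal gave -0.11 for Sod3, -0.27 for Txnrd1 U63923_at and -0.52 for Txnip rc_AI237654_at. Without the 3 high-ratio arrays, diabetic against normal gave 0.13 for Sod1 M21060_s_at, -0.31 for Cat M11670_at, 0.10 for Gpx1 X07365_s_at and -0.57 for Txnip rc_AI237654_at. The same fit gave 0.06 for Txnrd1 rc_AA891286_at in treated against untreated diabetic, and -0.27 for Sod3, -0.88 for Txnrd1 U63923_at and -0.97 for Txnip rc_AI237654_at in treated against untreated normal muscle. Without untreated diabetic replicates 1 and 3, diabetic against normal gave 0.038 and 0.006 for Sod1 M21060_s_at and M25157mRNA_i_at, and treated against untreated diabetic -0.23 for Sod2 and 0.012 for Gpx1 X07365_s_at. Quantile normalization gave 0.021 for Txnrd1 rc_AA891286_at in treated against untreated diabetic and 0.021 for Gpx4 in treated against untreated normal muscle. The cause was not tested.

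The fits that left out 1 array were searched over the same members and comparisons. Leaving out 1 array turned the sign for treated against untreated normal muscle of Cat M11670_at (-0.34 to 0.32), Cat rc_AA926149_g_at (-0.072 to 0.72), Prdx1 (-0.16 to 0.33), Sod3 (-0.01 to 0.48), Txnip rc_AI237654_at (-0.27 to 0.49) and Txnrd1 U63923_at (-0.29 to 0.87). It did so for diabetic against normal in Gpx1 X07365_s_at (-0.14 to 0.028) and Sod1 M21060_s_at (-0.20 to 0.13). For treated against untreated diabetic it did so in Gpx1 X07365_s_at (-0.29 to 0.019), Prdx1 (-0.084 to 0.26), Sod2 (-0.061 to 0.42) and Txnrd1 rc_AA891286_at (-0.29 to 0.06). Over all probe sets, the 110 calls of diabetic against normal became 62 without a filter, 71 with the compared groups alone, 32 with covariates, 464 without the high-ratio arrays and 3 without untreated diabetic replicates 1 and 3. The 30 calls of treated against untreated diabetic became 11 with the compared groups alone, 50 with the larger pseudocount, 19 without a filter and 1 without those replicates. Leaving out 1 array gave 24 to 247 and 10 to 54 calls in these comparisons. For treated diabetic against untreated normal muscle the 0 calls became 359 without the high-ratio arrays, for treated diabetic against treated normal muscle they became 16 with the replicate block, and for the interaction the 10 calls became 1 without a filter, with quantile normalization or with covariates. With 1 array left out, treated diabetic against treated normal muscle gave 0 to 109 calls and treated diabetic against untreated normal muscle 0 to 3. The interaction gave 1 to 22 in such fits. Probe sets with wide array-to-array spread, such as Cat M11670_at and Txnrd1 U63923_at, allow only large differences to be seen.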
